A study of Rattus norvegicus with 34 samples.

Results

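The miRNA cards of this series hold positions that amplified in every rat tissue examined, and 78 such positions of TaqMan card A are described here. They were selected by their measured values: Cp was at most 35 in all 12 tissues. Cp, the threshold cycle of the PCR, falls as the amount of template rises. Card A has 384 numbered positions, and each measures a miRNA or a control RNA. Positions 11, 12, 35, and 36, which repeat nearly the same Cp within a library, were left out, which leaves 380. The rule also left out 12 positions by number, of which 6 met the limit, so that the 78 make up 20.5% of the 380. The files used here give position numbers only. The 78 are therefore called by number, their sequences were not used here, and no position is read as a named miRNA or as U6, the small nuclear RNA that the study used as its endogenous control.

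Tissues came from Sprague-Dawley rats of 4 weeks, male and female, and no group received a treatment. Bile duct, heart, kidney, lacrimal gland, liver, lung, pancreas, prostate, salivary gland, skeletal muscle, small intestine, and spleen were each measured in 1 library on card A from TRIzol-extracted total RNA, without preamplification. Glomerulus, proximal tubule, bronchial gland, intestinal villus, and mammary gland were cut from stained sections with a laser, extracted with the mirVana PARIS kit, preamplified for 12 cycles, and measured in 1 library each. No tissue or compartment has a replicate library, and how many animals entered a library is not given in the sources used here. Labelled tissues could not be checked against marker miRNAs, because positions carry no names in the files used here.

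miRNAs are short RNAs that guide the silencing complex to messenger RNAs and lower their translation or stability. Some are made in nearly every cell type and others in a few, and hence tissues differ in both kinds of profile. In quantitative PCR, an RNA with a steady level across tissues serves as a reference for the amount of RNA loaded, whereas an RNA that is present everywhere but at very different levels cannot serve so. Detection in every tissue and a steady level are thus separate properties.

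The 78 positions were not equally far from the limit in each tissue. Their median Cp was 24.5 in lung, 25.6 in bile duct, 25.7 in spleen, and between 26.4 and 28.0 in the other tissues apart from pancreas. In pancreas it was 31.2, which left 3.79 cycles to the limit against 10.5 in lung. Pancreas gave the latest Cp of the 12 tissues at 60 of the 78 positions, and 26 of them had a Cp above 32 there, against 6 at most in any other tissue. The selection thus rested largely on this library. Of the 59 positions that were detected in exactly 11 tissues, 45 were missing in pancreas alone, and without pancreas 123 positions would have met the rule. Just inside the limit lay positions 4, 16, and 307, with Cp of 34.7, 34.5, and 34.5 in pancreas. Just outside lay positions 17, 25, and 182, with 35.03, 35.05, and 35.11, also in pancreas.

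To compare tissues, the median Cp over the 78 positions was subtracted in each library. The result is called scaled Cp, in cycles, and 0 stands for the middle position of a library. The mean scaled Cp of a position over the 12 tissues ran from -5.27 to 5.05, a span of 10.3 cycles, with 26 positions within 1 cycle of 0. Assays can differ in efficiency, so an order between positions is an order of Cp and only roughly one of RNA amount. The SD over tissues had a median of 1.17 cycles, with quartiles of 0.816 and 1.59. It was under 1 cycle at 28 positions, from 1 to under 2 cycles at 39, and 2 cycles or more at 11. A position's range from its lowest to its highest tissue had a median of 3.95 cycles, and it was under 2 cycles at only 6 positions. In the heat map of scaled Cp, both level and spread vary from row to row.

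**Figure D1:**
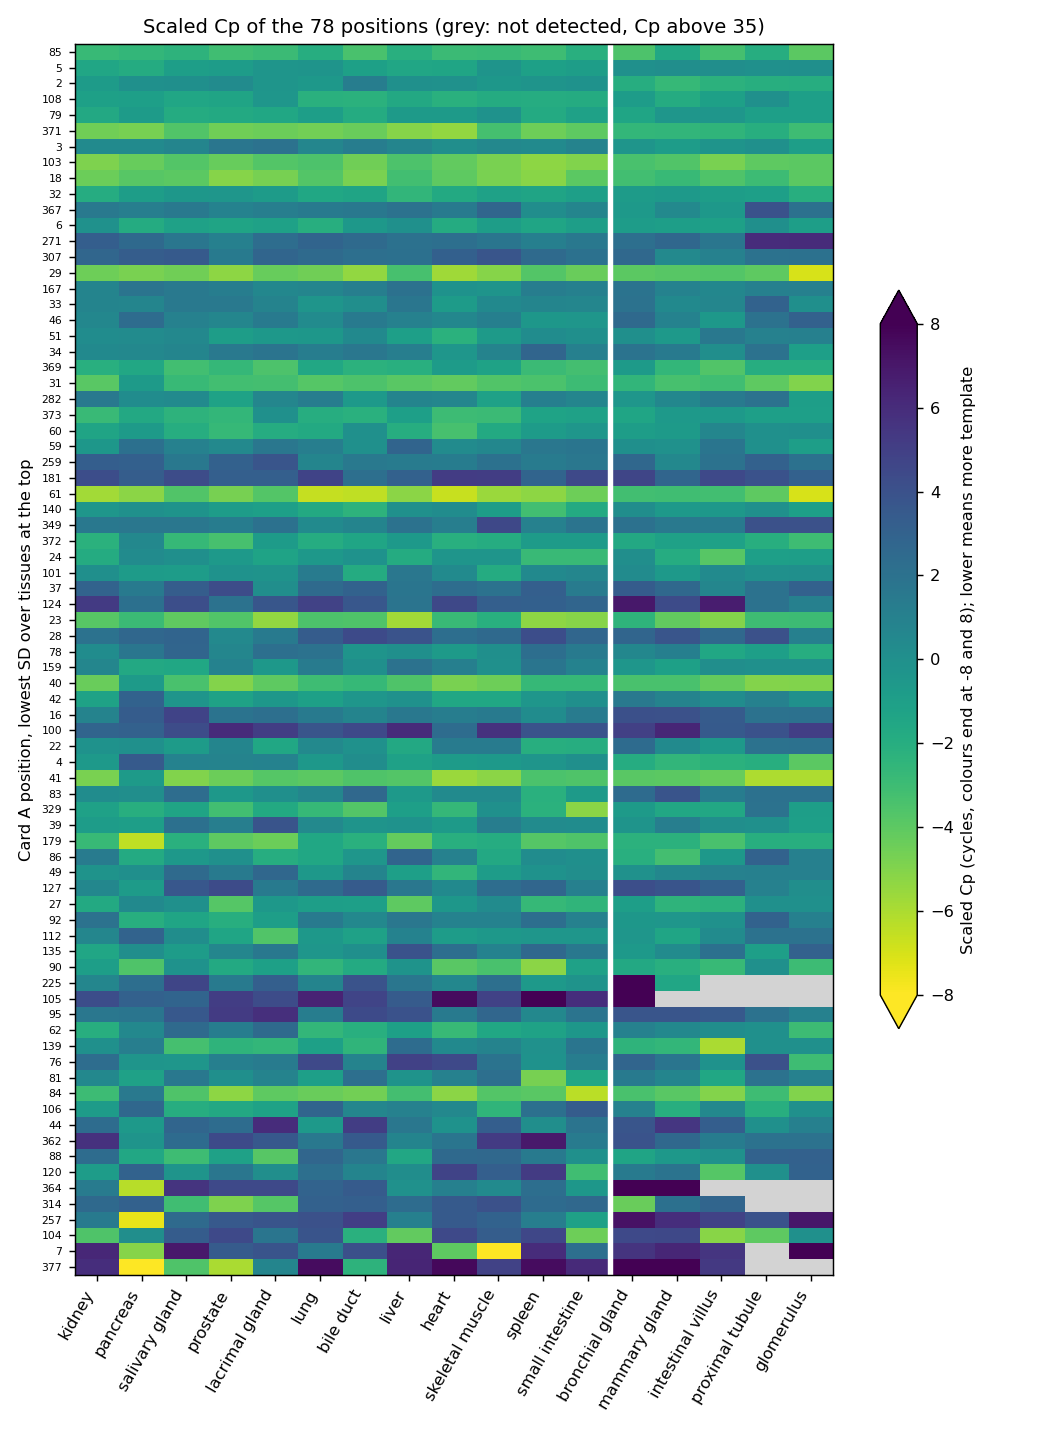
Scaled Cp (colour, in cycles, lower means more template) of the 78 positions (rows, lowest SD over tissues at the top) in 12 tissues and, right of the white line, 5 microdissected samples (columns, 1 library each). Rows near the top keep 1 colour across tissues, the last rows run from below -8 to above 7, and grey cells mark the wells above Cp 35, all of them in microdissected samples.

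Earlier positions had a somewhat smaller spread than later ones. Among the 26 positions with the lowest mean scaled Cp the median SD was 0.924 cycles, among the middle 26 it was 1.27, and among the 26 latest it was 1.36. Across the 78 positions the Spearman correlation of mean scaled Cp with SD was 0.338, which describes these positions of shared libraries and was not tested. The 5 earliest positions were 61, 29, 371, 103, and 18, with mean scaled Cp of -5.27, -4.62, -4.42, -4.31, and -4.30. Positions 371, 103, and 18 were also among the 10 with the lowest SD. The 5 latest were 105, 100, 181, 124, and 362, with 5.05, 4.28, 3.79, 3.43, and 3.08. Position 362 was at the same time among the most variable, with an SD of 2.19 cycles.

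**Figure D2:**
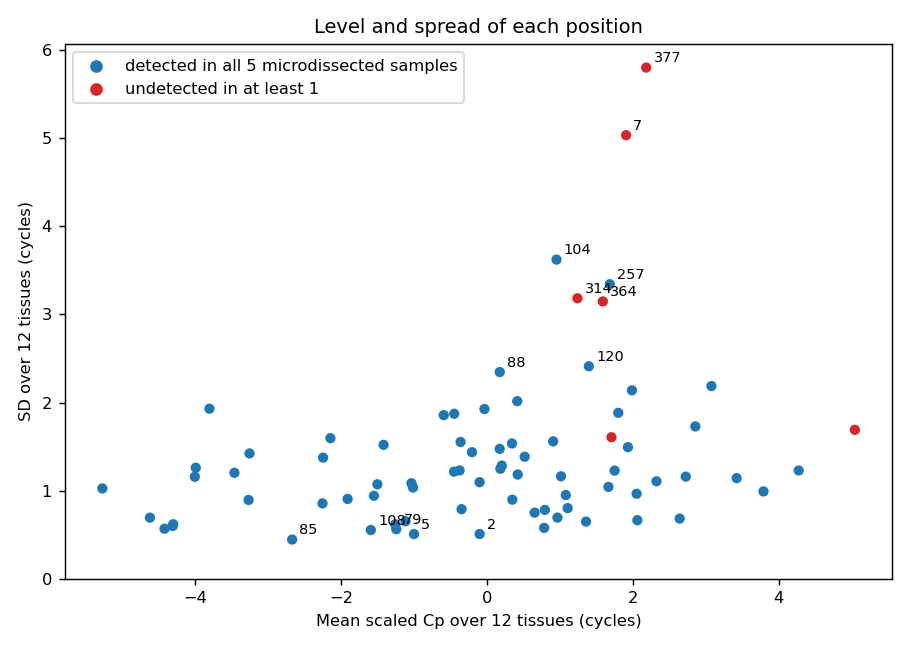
Mean scaled Cp over 12 tissues (horizontal, cycles) against the SD over those tissues (vertical, cycles), 1 point per position. Points labelled with their numbers are the 5 lowest and 8 highest SDs, positions 377 and 7 stand above 5 cycles, and the 6 red points are positions undetected in at least 1 microdissected sample.

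The steadiest position was 85, with a mean scaled Cp of -2.67 and an SD of 0.445 cycles over the 12 tissues. Its lowest scaled Cp was -3.39 in bile duct, its median was -2.81, and its highest was -1.99 in lung. Position 5 followed with an SD of 0.507, from -1.85 in pancreas over a median of -1.04 to -0.273 in skeletal muscle. Position 2 had an SD of 0.508, from -0.810 in kidney over a median of -0.117 to 1.22 in bile duct. In the next highest tissue, prostate, it was 0.291, and without bile duct the SD fell to 0.308, below the 0.401 of position 85 without that tissue. The other positions of the steadiest 10 were 108, 79, 371, 3, 103, 18, and 32, with SDs from 0.554 to 0.619 cycles.

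The 4 repeated positions had an SD within a library of 0.0610 (heart) to 0.841 cycles (lacrimal gland), with a median of 0.220. The SDs of the steadiest 10 ran from 0.445 to 0.619 over tissues, and without replicate libraries no error can be given for their order. After the same scaling, the mean of the repeated positions ran from -9.35 in spleen to -6.83 in bile duct, with an SD over tissues of 0.810 cycles, and 20 of the 78 positions had a lower SD. This scale was made from the 78 positions themselves. On the scale of the repeated positions, whose own spread is then removed, the SDs of the steadiest 10 ran from 0.653 (position 2) to 1.14 (position 79). The mean of the steadiest 10 ran from -2.40 to -1.71, with an SD of 0.216 cycles, but these positions were chosen for a low SD, so this is a description.

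The scale enters these orders. With a measure that needs no scale, the mean SD of the Cp difference between a position and each of the other 77, 9 of the steadiest 10 stayed in the list, and all of the most variable 10 did. When the repeated positions set the scale 5 of the steadiest 10 stayed, with the shorter runs defined below 6 stayed, and with no scaling 1 did. The most variable 10 kept 9 on the scale of the repeated positions and 5 each with no scaling and with the shorter runs.

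Pairs of positions with a steady difference do not depend on any scale. Among 3003 pairs the SD over tissues of the Cp difference had a median of 1.79 cycles. It was lowest for positions 18 and 85, at 0.370 cycles, with position 18 minus position 85 between -2.17 and -1.02 cycles, so that position 18 was earlier in every tissue. Both are among the steadiest 10. Position 41 minus position 42 lay between -4.64 and -2.84 cycles, with an SD of 0.476. Position 4 minus position 31 lay between 2.70 and 4.22 cycles, with an SD of 0.477. In these last pairs the members moved together: pancreas had their highest scaled Cp, at -0.710 and 2.99 for positions 41 and 42 and at 3.47 and -0.745 for positions 4 and 31. In the microdissected samples position 18 minus position 85 lay between -1.22 and 0.416 cycles, outside its range in tissues for 4 of the 5 samples. Position 18 was the later one in bronchial gland. In glomerulus their Cp values were nearly equal (21.99 and 21.97), and in proximal tubule (22.997 and 24.00) the difference lay at the edge of the tissue range. Cp in both libraries comes in steps of about 1 cycle, so the order in glomerulus and the place of proximal tubule outside the range are not resolved. Position 41 minus position 42 lay there between -7.04 and -4.55 cycles, outside its range in tissues for 4 of the 5 samples. Position 4 minus position 31 lay between 0.630 and 2.00 cycles, below its lowest tissue in all 5.

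At the other end, 6 positions had an SD above 3 cycles, and each had its own pattern of tissues. Bulk tissue was measured, so fewer cells of a type and less RNA per cell cannot be told apart in any of them. Position 377 had the highest SD, 5.80 cycles. Its scaled Cp was -8.23 in pancreas, -5.99 in prostate, -3.62 in salivary gland, -2.36 in bile duct, and 0.690 in lacrimal gland, and between 4.87 and 7.63 in the other 7 tissues. The glands and bile duct thus lay apart from all other tissues, without overlap. Before scaling the Cp was 23.0 in pancreas and 21.5 in prostate, against 31.95 to 34.3 in these 7 tissues.

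Position 7 had an SD of 5.03 cycles. Skeletal muscle was lowest, at -8.29, followed by pancreas at -5.10 and heart at -4.03, and the other 9 tissues lay between 1.46 in lung and 6.92 in salivary gland. Before scaling the Cp in skeletal muscle and heart was 19.5 and 22.4, the lowest of all tissues, and those in lung and pancreas were 25.97 and 26.1.

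Position 104 had an SD of 3.62 cycles and fell into separate levels. Small intestine, liver, kidney, and bile duct had scaled Cp of -4.49, -4.13, -3.59, and -2.15. Pancreas was at 0.0932 and lacrimal gland at 1.76. Skeletal muscle, salivary gland, lung, heart, prostate, and spleen were between 3.29 and 4.56. Position 120, with an SD of 2.41 cycles, was also lowest in small intestine, at -3.11. It was highest in spleen, heart, and skeletal muscle, at 5.21, 4.79, and 3.17.

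Position 257, with an SD of 3.34 cycles, was lowest in pancreas, at -7.48, then small intestine at -1.16, and between 1.011 and 5.04 in the other tissues. Position 364, with an SD of 3.15, had its lowest value in pancreas too, at -6.26, and next came small intestine and liver at -0.438 and -0.101. Before scaling, pancreas was still lowest at positions 257 and 364, but the gap was smaller. The Cp in pancreas and small intestine was 23.7 and 25.8 at position 257 and 24.9 and 26.5 at position 364. Without pancreas the SDs of positions 257 and 364 fell to 1.77 and 2.04 cycles. Position 314, with an SD of 3.18, separated 3 glands from everything else: prostate, lacrimal gland, and salivary gland were at -4.91, -3.80, and -3.10, and the other 9 tissues lay between 2.32 and 4.06. No tissue lay between these groups.

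**Figure D3:**
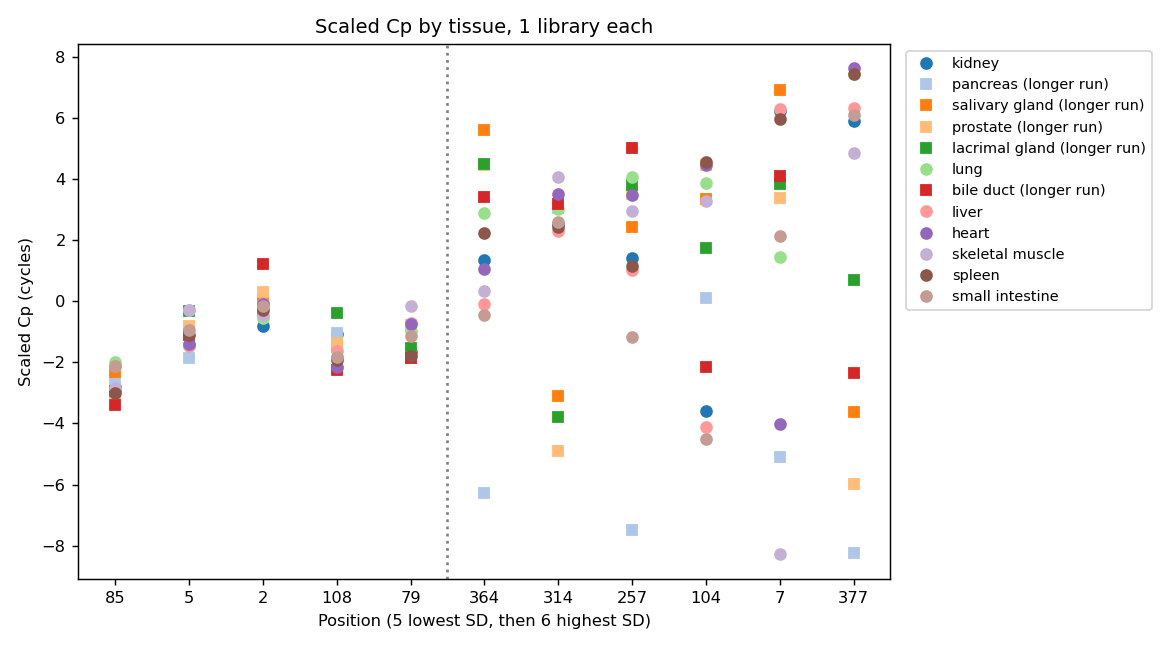
Scaled Cp (vertical, cycles) of each of the 12 tissues (colours, 1 library each) at the 5 positions with the lowest SD and, right of the dotted line, the 6 with the highest. Squares are longer runs and circles are shorter runs; the 5 steady positions span at most 2.03 cycles, and at position 377 all squares lie below all circles.

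The remaining positions of the most variable 10 were 88, 362, and 44, with SDs of 2.35, 2.19, and 2.14 cycles. Position 88 was lowest in lacrimal and salivary gland, at -3.83 and -3.01, and highest in lung, at 2.74. Position 362 ran from -0.298 in pancreas to 6.93 in spleen, and position 44 from -0.679 in lung to 5.95 in lacrimal gland. Before scaling, pancreas was not the lowest tissue at position 362: the Cp was 30.9 in pancreas and 26.1 in lung. Among the 10 most variable positions, patterns were most alike at 257 and 364, with a Pearson correlation of 0.862 over the 12 tissues, which pancreas at the low end of both helps to set.

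Tissues differed in how far they lay from the mean profile of the 78 positions. The root mean square deviation was 1.24 cycles in lung, 1.25 in kidney, and 1.29 in bile duct, and it was 2.54 in pancreas, where 20 positions lay over 2 cycles from their mean. Heart had the lowest scaled Cp of all tissues at 16 positions, spleen at 13, and pancreas at 10. The highest scaled Cp was most often in liver, at 13 positions, and pancreas, at 11. Small intestine had the most positions within 1 cycle of their mean, 58, and heart the fewest, 37. Lung and heart were the most similar pair of tissues by root mean square difference, at 1.26 cycles, and pancreas and spleen the least, at 3.39. These are single libraries, and none of these differences can be set against replicates.

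The numbering of the card also went with the selection. In consecutive blocks of 48 numbers from the start of the card, 25, 18, 14, 4, 1, 4, 3, and 9 of the 78 positions were found. That is 56.8% of the 44 positions of the first block that could be selected and 2.08% of the 48 positions from 193 to 240. The median SD over tissues lay between 0.931 and 1.61 cycles in these blocks, with no order along the card. The layout of the assays was not used here.

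The 12 tissues were next compared as units to ask whether the 78 positions differed between the 9 tissues with a tubular structure (bile duct, kidney, lacrimal gland, liver, lung, pancreas, prostate, salivary gland, and small intestine) and heart, skeletal muscle, and spleen. Limma was fitted to the 220 positions detected in at least 6 tissues, with undetected wells set to 35. No position of the 78 passed an adjusted p of 0.05 in either direction. Over all positions tested, 2.73% passed with a lower scaled Cp in tubular tissues and 0.455% with a higher one. The rule required detection in these same 12 tissues, which bounds the differences that the 78 could show. Other positions among the 220 had undetected wells set to 35. Shares and counts over the 220 are therefore not like ones for the 78. The lack of calls does not show that the 78 are alike between the classes. At an unadjusted p under 0.05 there were 4 of the 78, against 25 of all 220 positions tested. The exact permutation test over tissues gave 3 of the 78 at that level, against 23 of the 220. Its smallest p is 0.00455, so after adjustment over 220 positions a call would need many positions at that p together. The 0 calls it gave after adjustment therefore decide nothing. Nearest to the threshold was position 120, with means of 0.401 in tubular and 4.39 in the other tissues. The difference was -3.99 cycles (SE 1.08; limma, adjusted p = 0.0714), and the groups did not overlap. It passed under 4 of 22 alternatives, among them run length as a term (limma, adjusted p = 0.0462) and without pancreas (limma, adjusted p = 0.0267). Under the others it did not pass. Position 90 went the other way, with means of -1.47 and -4.18 and a difference of 2.71 cycles (SE 0.771; limma, adjusted p = 0.0821). It passed under only 2 of 22 alternatives, among them without pancreas (limma, adjusted p = 0.0212). Tissues of a class are different organs and not replicates of each other.

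Libraries also differed in the latest Cp at which any well was recorded. No label gives the number of PCR cycles, and the names longer and shorter runs are used here only for this difference in the values. Bile duct, lacrimal gland, pancreas, prostate, and salivary gland had Cp values above 43, and the other 7 tissues did not. The same limma fit on this division found 4 of the 78 positions past an adjusted p of 0.05. A lower scaled Cp in longer runs was found at 2 (2.56%, against 3.18% of all positions tested), and a higher one at 2 (2.56%, against 5.91%). Here too the 78 had been selected by detection in these tissues, so the shares are not like ones. Position 377 had means of -3.90 in longer and 6.53 in shorter runs, a difference of -10.4 cycles (SE 1.24; limma, adjusted p = 0.000281). At position 92 they were -1.18 and 1.43, a difference of -2.61 cycles (SE 0.542; limma, adjusted p = 0.0151). In both the groups did not overlap. Positions 49 and 225 had higher scaled Cp in longer runs, by 2.22 and 2.35 cycles (limma, adjusted p = 0.0417 and 0.0451), with overlapping groups. These last 2 calls were lost under 12 of the 16 alternatives each. Within tubular tissues only position 377 passed (-9.35 to -11.6 cycles over all alternatives). Leaving out 1 tissue moved the count to 2 (kidney, salivary gland, lacrimal gland, lung, liver, heart, or spleen), to 7 (bile duct), or to 8 (pancreas). All longer runs are glands or ducts, so this difference and organ type cannot be told apart here. Within the 7 shorter runs alone, the SD of position 377 was 1.02 cycles and that of position 314 was 0.645, whereas positions 7, 104, and 120 kept SDs of 5.66, 4.36, and 3.06.

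The microdissected samples were not used to select the positions, and nearly all of the 78 were detected in them. Bronchial gland detected all 78 at Cp 35, against 65.3% of the 380 positions. Mammary gland detected 77 (60.5% of the 380), and intestinal villus 75 (57.1%). Glomerulus detected 73 (46.6%), and proximal tubule 72 (48.9%). All 5 samples detected 72 of the 78 (92.3%), against 39.2% of the 380 and 25.5% of the 302 positions outside the 78. These are not like shares, because the 302 include 67 positions undetected in every tissue. The 78 had passed the limit in pancreas, where their median lay 3.79 cycles from it. In the preamplified samples it lay 9.01 to 13.6 cycles from the limit. Detection of most of the 78 was thus likely beforehand.

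The 6 positions that were missed somewhere were 7, 105, 225, 314, 364, and 377. Positions 7, 314, 364, and 377 had SDs over tissues above 3 cycles, and position 105 was the latest of the 78. Position 105 was detected only in bronchial gland, at a Cp of 32.8, and lay at 35.98 to 36.77 in the other 4 samples, just past the limit. Positions 225 and 364 did not amplify in intestinal villus, proximal tubule, or glomerulus, and were detected in bronchial gland (29.5 and 29.8) and mammary gland (21.5 and 32.02). Both had been detected in whole kidney, at 27.4 and 28.1, and in whole small intestine, at 26.7 and 26.5. Position 314 had the lowest Cp of the 78 positions in bronchial gland, 17.1, was at 25.04 and 25.07 in mammary gland and intestinal villus, and lay just past the limit in glomerulus (35.01) and proximal tubule (35.99). Position 377 was just past it in proximal tubule and glomerulus (35.96 and 35.97), and position 7 did not amplify in proximal tubule.

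Scaled to the same 78 positions, the compartments followed the tissue means in part. The Spearman correlation of scaled Cp with the mean over tissues, across the positions detected, was 0.843 in both bronchial and mammary gland, 0.775 in intestinal villus, 0.737 in glomerulus, and 0.697 in proximal tubule. These correlations describe positions of single libraries. In proximal tubule and glomerulus 94.7% and 92.1% of the amplified members lay within 0.05 cycles of a whole cycle, so that their values come in steps of about 1 cycle; in the other samples the share was at most 24.4%.

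Steadiness over tissues went with steadiness over compartments. Among the 72 positions detected in all 5 samples the SD over these samples had a median of 1.07 cycles, against 1.15 over tissues for the same positions, and the Spearman correlation of the SDs was 0.544. Of the 10 steadiest over tissues, 9 were among the 20 with the lowest SD over compartments. Position 5 had the lowest of all, 0.0620 cycles, with scaled Cp between -0.0155 and 0.114 in the 5 samples. That is below the lowest SD of the repeated positions within a microdissected library, 0.0956. Its values in proximal tubule and glomerulus also come in steps of about 1 cycle, so an SD this small is not resolved. The exception was position 85, the steadiest over tissues, with an SD of 1.04 over compartments and values from -3.995 in glomerulus to -1.59 in mammary gland. Position 104 had the highest SD over both, 4.56 cycles over compartments. It was at -5.16 in intestinal villus and -4.03 in proximal tubule, near small intestine (-4.49) and kidney (-3.59), and at -0.0151 in glomerulus, 4.47 in bronchial gland, and 4.51 in mammary gland. Position 120 was lowest in intestinal villus, at -3.77, as it was in small intestine.

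**Figure D4:**
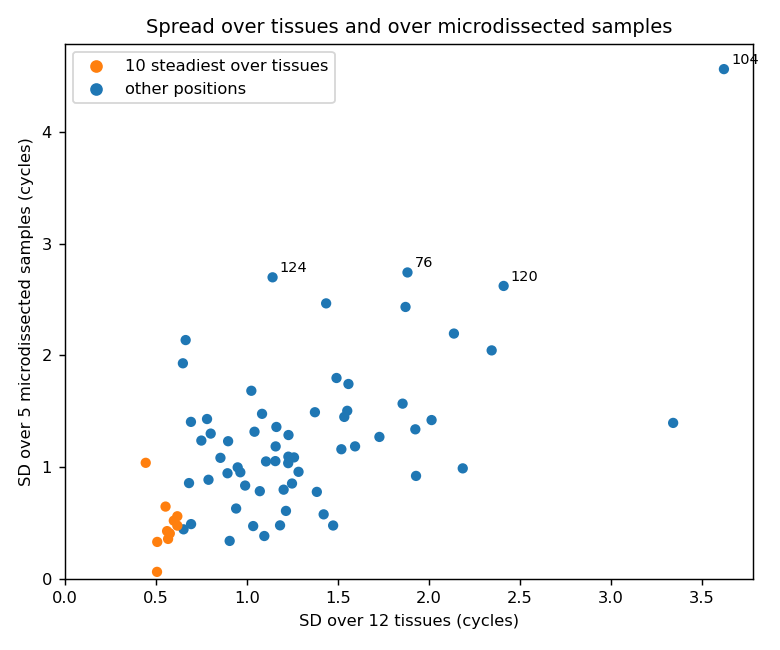
SD over 12 tissues (horizontal, cycles) against SD over 5 microdissected samples (vertical, cycles) for the 72 positions detected in all 5, 1 point per position. The 10 steadiest over tissues (orange) lie at or below 1.04 cycles on the vertical axis, and position 104 is highest on both axes among the positions shown.

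A steady level within each set of samples did not mean the same level in both. Microdissected samples and tissues were compared with limma over the 211 positions detected in at least 9 of the 17 samples, with undetected wells at 35. Microdissection, the extraction kit, and preamplification went together and cannot be told apart. Of the 78 positions 8 passed an adjusted p of 0.05, 3 (3.85%) with a lower scaled Cp in microdissected samples and 5 (6.41%) with a higher one. Over all positions tested these shares were 2.84% and 12.8%. A well set to 35 had a scaled Cp of 9.01 to 13.6 in microdissected samples and of 3.79 to 10.5 in tissues. Positions with undetected wells could thus lean to a higher call, and the 78 had no such wells in tissues. The 12.8% is therefore not a like share for them. Position 2 was between -2.73 and -1.95 in the 5 samples and between -0.810 and 1.22 in tissues, a difference of -2.09 cycles (SE 0.380; limma, adjusted p = 0.000947). Position 371 was between -3.01 and -2.01 in the 5 samples and between -5.40 and -3.31 in tissues, a difference of 1.89 cycles (SE 0.396; limma, adjusted p = 0.00283). Both are among the steadiest 10 and neither overlapped between the sets. Positions 3 and 5 of the steadiest 10 did not overlap either, whereas the rest of the steadiest 10 did. Position 5 was between -0.0155 and 0.114 in the 5 samples and between -1.85 and -0.273 in tissues. Its difference of 1.05 cycles did not pass (limma, adjusted p = 0.0614). How many of the 211 positions did not overlap was not counted. Position 3, also of the steadiest 10, differed by -1.27 cycles between microdissected samples and tissues (limma, adjusted p = 0.0385), and position 4 by -2.71 cycles (limma, adjusted p = 0.00656).

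Positions 105, 364, 225, and 83 were higher in microdissected samples, by 5.80, 8.06, 5.77, and 2.12 cycles (limma, adjusted p = 0.000408, 0.000947, 0.0133, and 0.0385). The values of positions 105, 364, and 225 rest on wells set to 35, in 4, 3, and 3 of the 5 samples, and the later Cp of those wells is not in the differences. The call at position 3 was lost without bile duct, bronchial gland, glomerulus, intestinal villus, mammary gland, prostate, salivary gland, or small intestine, and the call at position 225 without intestinal villus, on the scale of the repeated positions, and with no scaling. The call at position 83 was lost without bronchial gland, glomerulus, heart, liver, mammary gland, prostate, proximal tubule, or small intestine, and with the mean over the members as the scale. The scale decided much of this comparison. The median difference of the 78 positions was 0.299 cycles, but it was -0.312 with the mean over the 78 as the scale. It was -1.95 when the repeated positions set the scale and -2.98 with none. Under the last pair 31 and 38 of the 78 passed as lower in microdissected samples, against 2 as higher each time. Over all 211 positions tested, 62 and 77 passed as lower and 7 and 3 as higher under this pair. Positions 371 and 83 turned direction under this pair, to -0.357 and -0.134 cycles with the repeated positions and to -1.39 and -1.16 with no scaling, and no longer passed. Positions 2 and 4 passed with the same direction under all 22 alternatives.

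Compartments and their organs of origin could be set side by side in 1 library each. Scaled Cp of intestinal villus lay within 1 cycle of small intestine at 44 of 75 positions detected in both and over 2 cycles away at 11. Proximal tubule lay within 1 cycle of kidney at 35 of 72 positions and over 2 cycles away at 14, and for glomerulus the numbers were 34 of 73 and 18. The SD of these differences over positions was 1.71, 1.33, and 1.90 cycles.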

How the data were processed

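Cp (threshold cycle) values of card A were read by the authors from real-time PCR amplification plots in SDS and RQ Manager. The deposited table holds them without the later normalization to U6, and 50 stands for a well that did not amplify. The deposited values are PCR cycles on a scale that runs opposite to log2 of template amount. The depth of a card is not a count, and precision is limited by 1 library per tissue. Card B was not used. The members and lists were chosen with earlier results of these data known. Cp was scaled to the median of the 78 members in each library, and SDs are sample SDs. Differences were tested with limma (lmFit and eBayes) and Benjamini-Hochberg adjustment over all positions tested, with undetected wells at 35 before scaling. P-values measure the spread between different tissues, not between replicates. Limma was tested on simulated data with known differences.

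The positions described singly were the 10 with the lowest and the 10 with the highest SD, the 5 earliest and 5 latest by mean, those missed in a microdissected sample, the 3 pairs with the steadiest difference, the 3 nearest the limit on either side, and up to 5 per direction with the lowest adjusted p in a comparison. Limits of 32 and 40, other scales, other sets of positions or tissues, an exact permutation test, and leaving out each sample were tried as alternatives. The tools were R 4.3.3 with limma 3.58.1, and matplotlib 3.10.9, scipy 1.17.1, pandas 2.3.3, and numpy 2.4.6 under Python 3.11.15.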

Additional observations from a re-analysis of the deposited data

Results flagged for a closer look

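Of 65 groups of values examined, 6 held a sample whose gap to its nearest neighbour was above the critical share of the range. For groups not chosen by their values, chance alone gives about 1 in 20. Most groups here were positions listed for their SD, level, missed detection, or adjusted p in these same values. That rate does not hold for them, so the count of 6 cannot be set against it. Among the 9 tubular tissues, pancreas stood apart in the mean Cp of the repeated positions (22.2, next 19.3) and in the scaled Cp of positions 4 (3.47, next 0.899), 7 (-5.10, next 1.46), and 257 (-7.48, next -1.16). Among the 5 microdissected samples, glomerulus stood apart at positions 29 (-7.02, next -4.01) and 61 (-7.01, next -4.04). Pancreas also had the latest median Cp of the 12 tissues (31.2), and in glomerulus 92.1% of the amplified members lay within 0.05 cycles of a whole cycle. The part of these in the values was not tested.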

How the results depend on the processing

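The number of positions was 78, and it was 46 with a limit of 32, 111 with 40, and 84 with the 12 left-out positions kept in; with each tissue left out it ran from 78 to 123, the highest without pancreas. The median SD of 1.17 cycles became 2.14 with no scaling and 0.871 in the shorter runs, and ran from 1.08 to 1.21 with each tissue left out. Of the steadiest 10, the number that stayed was 5 with the repeated positions as the scale, 1 with no scaling, and 6 each with the median absolute deviation and the shorter runs; it ran from 7 to 10 with each tissue left out. Of the most variable 10, it was 5 each with no scaling and the shorter runs, and 9 to 10 with each tissue left out. Detection in all 5 compartments was 70 with a limit of 32, 75 with 40, and 72 to 73 with 1 sample left out.

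Between tubular and other tissues the count of 0 became 1 with the repeated positions as the scale or with run length as a term. It was 2 over the 84 positions detected in all tissues, where fewer positions were tested and the fit was made anew. With each tissue left out it ran from 0 to 2, and it was 2 without pancreas. Between microdissected samples and tissues the count of 8 became 33 with the repeated positions as the scale and 40 with none. Over all 211 positions tested the count of 33 became 69 and 80 in the same way. With 1 sample left out the count of the 78 ran from 6 to 10. With the repeated positions and with no scaling, position 371 turned to -0.357 and -1.39 cycles and position 83 to -0.134 and -1.16. Between longer and shorter runs the count of 4 became 1 with no scaling and 1 in tubular tissues, and ran from 2 to 8 with each tissue left out. The cause of these changes was not tested. The median difference of the 78 between tubular and other tissues was 0.309 cycles, -0.152 with the repeated positions as the scale, and 0.771 with none; between longer and shorter runs it was 0.148, -0.701, and 1.13. No paired analysis was possible because no tissue or compartment was measured in more than 1 library.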
